A study of Bos taurus with 6 samples.

Results

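Part of the bovine genome assembly UMD3.1 is held in unplaced sequences, which are pieces of assembled DNA that could not be attached to any chromosome. CpGs were assigned to them when the chromosome field of the deposited tables was none of the autosomes, X, Y or the mitochondrial genome, and when they were covered by 5 to 500 reads in all 6 libraries. This gave 10073 CpGs on 341 unplaced sequences, of 1580644 CpGs that met the same coverage criterion in the whole genome, or 0.637%. Methylation was measured by reduced representation bisulfite sequencing (RRBS), in which DNA is cut at CCGG by MspI, short fragments are selected and bisulfite converts unmethylated cytosines, so that the methylated share of the reads is obtained at each CpG.

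The 6 libraries came from Holstein cattle, and each from a different animal. The 2 sperm libraries were made from frozen commercial semen straws of bulls, the 2 monocyte libraries from blood monocytes of cows purified with anti-CD14 beads, and the 2 fibroblast libraries from primary ear skin fibroblasts of adult heifers (cows in the labels) that had been grown in culture. The labels name no treatment and no engineered allele. Because all sperm came from males and all somatic cells from females, sex and cell type cannot be told apart, and only fibroblasts were cultured. Monocyte libraries were amplified with 12 PCR cycles and the others with 14.

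In vertebrate genomes most CpGs are methylated in somatic cells, apart from CpG islands at promoters and enhancers, and the sperm methylome is rebuilt during male germ cell development, after an erasure in the fetal germline. Sequences that an assembly fails to place are often short and often hold repeats such as satellites, segmental duplications or ribosomal DNA, since near-identical copies prevent assembly. A read that matches several places is not uniquely mapped and is discarded, whereas a read from a copy that is missing from the assembly can map uniquely to the copy that is present. The identity of the unplaced sequences, in terms of genes or repeat families, was not analysed here.

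The unplaced sequences were mostly represented by few CpGs. The median was 9 CpGs per sequence (quartiles, 4 and 23), and 171 sequences with fewer than 10 CpGs held only 761 CpGs. The 170 sequences with 10 CpGs or more held 9312 CpGs (92.4%), and the 10 sequences with the most CpGs held 3564 (35.4%). The last base at which a CpG was listed in any library, a lower bound of the length of the sequence, had a median of 3131 and reached 177773. The largest contributor was GJ058435.1, with 822 CpGs between bases 2128 and 110990. The median number of other covered CpGs within 100 bp was 6 for CpGs of unplaced sequences and 7 for those of autosomes.

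Coverage of the unplaced sequences was less reproducible across libraries than that of the autosomes. In total, 128384 CpGs on 1319 unplaced sequences were listed in at least 1 library and 48320 were covered by 5 to 500 reads in at least 1, but only 20.8% of the latter were covered in all 6 libraries, against 45.8% for autosomes and 33.3% for the X chromosome. Conversely, 34.5% of them reached this coverage in 1 library only, against 15.4% on autosomes. Among the CpGs covered in all 6 libraries, median coverage was 17 and 19 reads in sperm, compared with 20 and 16 in monocytes and 21 and 26 in fibroblasts, which was 1.00 to 1.11 times the autosomal median of the same library. The distribution had a heavy tail, however. CpGs with 50 reads or more made up 7.26 to 14.3% of unplaced CpGs per library, compared with 1.05 to 4.69% of autosomal CpGs. At this coverage an individual CpG is measured coarsely, while averages over 10073 CpGs have little counting error, and the total coverage per library ranged from 45884839 to 78890776.

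Average methylation of the unplaced CpGs was highest in monocytes. The monocyte libraries were at 76.2 and 76.0%, the fibroblast libraries at 61.1 and 61.0% and the sperm libraries at 58.3 and 57.8%. The groups did not overlap, and the largest gap between replicates of a cell type was far below the smallest gap between cell types. Monocytes exceeded sperm by 18.0 points and fibroblasts by 15.1 points, and fibroblasts exceeded sperm by 2.96 points. The last difference depended on coverage, and was 16.6 points with CpGs weighted by their reads but -2.77 points on sequences below 1.5 times the autosomal coverage. The two-sided exact permutation p of these 3 comparisons was 0.333, the lowest that 2 libraries against 2 allow. For sperm against the 4 somatic libraries (58.1% against 68.6%), the exact permutation p was 0.133, where the smallest possible value is 0.0667, and all these p-values were 0.40 after Benjamini-Hochberg adjustment over 24 comparisons.

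The unplaced sequences were more methylated than the autosomes in every library, by an amount that varied with the cell type. Autosomal CpGs averaged 54.0 and 53.7% in monocytes, 49.5 and 49.1% in sperm, and 46.1 and 46.6% in fibroblasts. The excess of unplaced sequences was thus 8.78 ± 0.059 points in sperm, 22.2 ± 0.049 points in monocytes and 14.7 ± 0.40 points in fibroblasts (mean ± SD, n = 2). The excess differed between each pair of cell types by more than the spread between replicates, by 13.5 points for monocytes against sperm, 5.92 for fibroblasts against sperm and 7.54 for monocytes against fibroblasts (exact permutation p = 0.333 for each, the smallest that 2 against 2 can give). On sequences and autosomal windows below 1.5 times the autosomal coverage, these became 8.84, 1.18 and 7.66 points.

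Categorization of the CpGs showed that the cell types differed in the form of the distribution as well as in the mean. CpGs under 20% methylation (hypomethylated) accounted for 32.3 and 33.5% of unplaced CpGs in sperm, against 13.8 and 14.3% in monocytes and 18.3 and 18.7% in fibroblasts. CpGs above 80% (hypermethylated) accounted for 50.6 and 50.8% in sperm, against 70.5 and 69.0% in monocytes and 38.8 and 39.7% in fibroblasts. The remaining intermediate CpGs formed 17.2 and 15.8% in sperm and 15.6 and 16.7% in monocytes, which overlapped, but 42.9 and 41.6% in fibroblasts. Sperm had more hypomethylated CpGs than any somatic library (32.9% against 16.3% on average, exact permutation p = 0.0667, the smallest possible). Relative to the autosomes of the same libraries, intermediate CpGs were more frequent in unplaced sequences, by 10.8 ± 1.1 points in sperm, 5.26 ± 0.43 in monocytes and 16.7 ± 0.66 in fibroblasts (mean ± SD, n = 2).

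**Figure D1:**
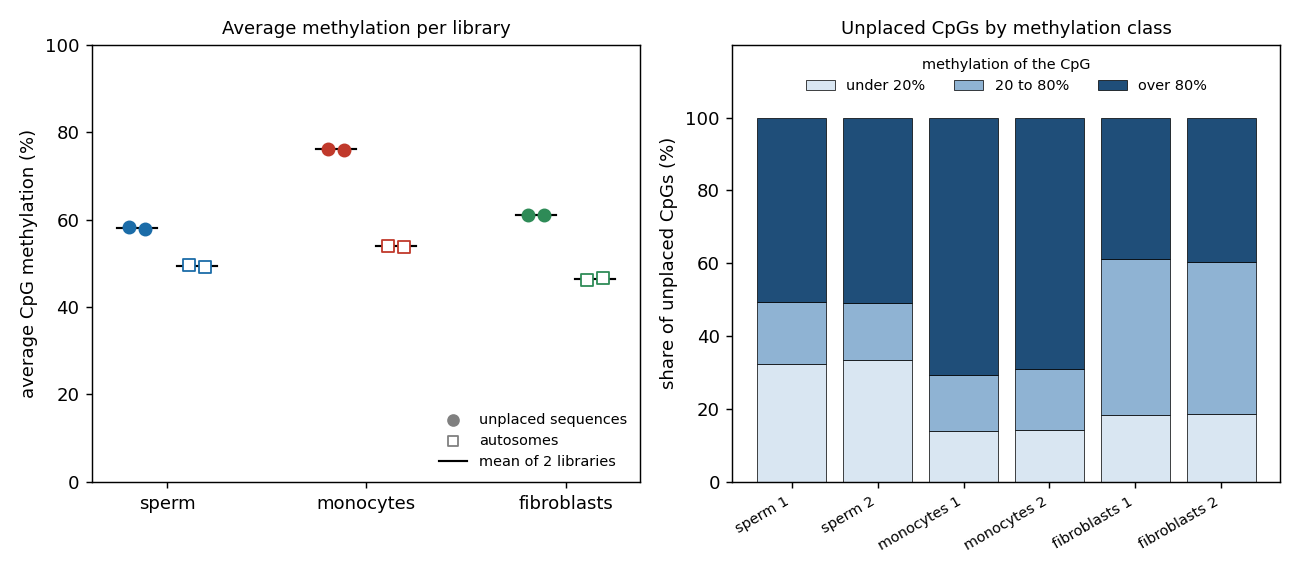
Left, average CpG methylation (%) of each library over unplaced sequences (filled circles) and autosomes (open squares), with the mean of the 2 libraries as a bar. Right, share of unplaced CpGs (%) under 20%, from 20 to 80% and over 80% methylation in each library. Unplaced sequences lie above the autosomes in all 6 libraries, by 8.78 points in sperm and 22.2 points in monocytes, and the intermediate share is largest in fibroblasts (42.9 and 41.6%).

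Many CpGs were intermediate in both animals of a cell type. In sperm, 1162 unplaced CpGs (11.5%) on 211 sequences were intermediate in both bulls, against 3.37% of autosomal CpGs. The same held for 946 CpGs (9.39%) in monocytes, against 6.38% on autosomes, and for 3111 CpGs (30.9%) in fibroblasts, against 16.9%. When only the 1626 unplaced CpGs with 20 reads or more in all libraries were considered, the share intermediate in both sperm libraries was 18.0%, against 5.77% on autosomes. Taking the 3 cell types together, 2259 unplaced CpGs (22.4%) were hypermethylated in all of them and 1125 (11.2%) were hypomethylated in all of them. A further 1976 (19.6%) were hypermethylated in sperm and monocytes and intermediate in fibroblasts.

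Methylation varied widely between unplaced sequences, and more so in sperm than in somatic cells. Over the 170 sequences with 10 CpGs or more, the SD between sequences reached 33.1 points in sperm, compared with 19.98 in monocytes and 20.8 in fibroblasts, while the median gap between the 2 replicates of the same sequence was 1.67, 1.92 and 2.65 points. The median sequence was methylated at 46.5% in sperm (quartiles, 22.1 and 89.3), 83.5% in monocytes (73.4 and 90.3) and 64.9% in fibroblasts (52.5 and 75.5). For comparison, 28628 autosomal windows of 20000 bp with the same minimum of 10 CpGs had SDs of 40.1, 37.4 and 32.0 points and medians of 46.0, 67.8 and 52.3%. Averages under 20% were less frequent among unplaced sequences than among autosomal windows in every library, especially in somatic cells. Such sequences numbered 38 and 41 of 170 in the sperm libraries (22.4 and 24.1%, compared with 36.1 and 36.7% of windows). They numbered 5 and 6 in monocytes (2.94 and 3.53%, compared with 29.2 and 29.3%) and 12 and 14 in fibroblasts (7.06 and 8.24%, compared with 31.0 and 30.8%). The identity of the sequence accounted for 49.1 and 50.7% of the variance of CpG methylation in sperm, against 36.9% in both monocyte libraries and 33.4 and 33.7% in fibroblasts.

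The difference between sperm and somatic cells varied with coverage. For each sequence, coverage was expressed relative to the autosomal median of each library and averaged over libraries. It was 1.5 or more for 53 of the 170 sequences (31.2%) but for only 3.74% of the autosomal windows. Taking all sequences with a CpG, 215 sequences below 1.5 held 8578 CpGs, 49 sequences from 1.5 to 3 held 691, and 77 sequences at 3 or more held 804. The sequences at 3 or more were short, with a median last listed base of 1471 compared with 5234 below 1.5. Whether their reads came from that sequence alone or also from similar copies outside the assembly was not tested.

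In the sequences below 1.5 times the autosomal coverage, average methylation was 63.4 and 63.1% in sperm, against 75.4% in both monocyte libraries and 60.6 and 60.4% in fibroblasts. Sperm therefore lay between the somatic cell types, and fibroblasts were below sperm by 2.77 points, unlike in the average over all unplaced CpGs (sperm minus somatic, -4.70 points, exact permutation p = 0.467). In those from 1.5 to 3, it was 30.7 and 30.1% in sperm, against 78.9 and 76.6% in monocytes and 62.6 and 63.1% in fibroblasts, and sperm was below all somatic libraries by 39.9 points on average. At 3 or more, sperm averaged 26.8 ± 1.2%, monocytes 82.1 ± 0.38% and fibroblasts 65.6 ± 0.057% (mean ± SD, n = 2), a difference of -47.1 points between sperm and somatic cells. For both classes of high coverage the exact permutation p was 0.0667, the smallest possible. From the sequences below 1.5 to all those at 1.5 or more, average methylation changed by -34.4 and -35.2 points in sperm, 5.36 and 3.99 points in monocytes and 3.67 and 3.98 points in fibroblasts. This change differed by -39.1 points between sperm and somatic cells (exact permutation p = 0.0667, unadjusted). The difference between monocytes and fibroblasts hardly moved across the classes, at 14.9, 14.9 and 16.6 points. Autosomal windows at 3 or more gave 20.3% in sperm, 77.6% in monocytes and 59.8% in fibroblasts, so that this profile was also seen on placed chromosomes.

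Intermediate CpGs of sperm were more frequent on the sequences of high coverage. They made up 11.3% of sperm CpGs below 1.5, 46.5% from 1.5 to 3 and 45.6% at 3 or more, whereas the hypermethylated share was 58.5, 7.81 and 4.10%. Autosomal windows changed in the same direction, with 4.94, 22.5 and 37.9% intermediate and 48.1, 17.5 and 1.52% hypermethylated CpGs in sperm. The sequences of high coverage were also alike among themselves. Over the 53 sequences at 1.5 or more, sperm methylation had quartiles of 17.3 and 43.1%, monocytes of 77.4 and 87.0% and fibroblasts of 58.5 and 73.7%, and the difference between sperm and somatic cells had quartiles of -52.2 and -40.3 points. Over the 117 sequences below 1.5, the quartiles of that difference were -29.9 and 14.2 points. Only 2 of the 53 had sperm above the somatic average, GJ057222.1 (91.4% against 81.4%, 14 CpGs) and GJ060146.1 (65.0% against 60.1%, 17 CpGs), and both were picked out after their values were seen.

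**Figure D2:**
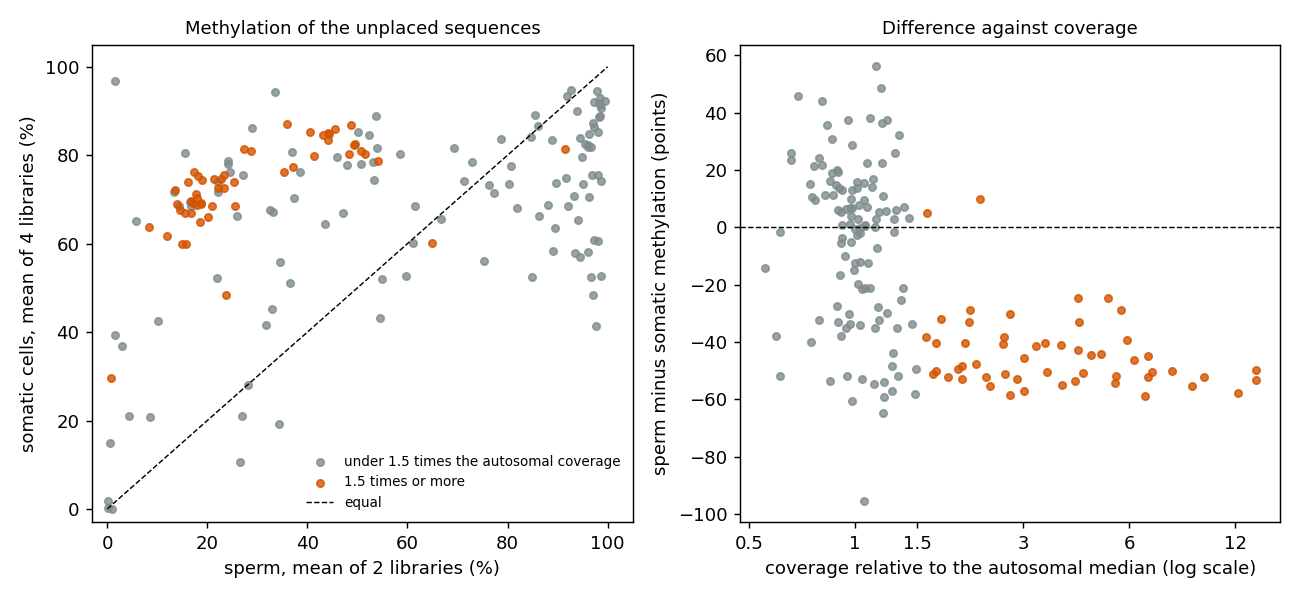
Left, average methylation (%) of each of the 170 unplaced sequences with 10 CpGs or more in sperm (mean of 2 libraries) against somatic cells (mean of 4 libraries), with the line of equality. Right, sperm minus somatic methylation (points) against coverage relative to the autosomal median (log scale). Sequences at 1.5 times the autosomal coverage or more (orange) lie between -59.0 and 10.0 points, with a median of -48.5, whereas the others (grey) lie on both sides of 0, with a median of 0.89.

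CpGs were next compared between cell types one by one. Methylated and unmethylated reads were summed over the 2 replicates of a cell type and tested by logistic regression over all 1580644 CpGs, and a CpG was called a differentially methylated CpG (DMC) at a Benjamini-Hochberg adjusted p below 0.01 with a difference of at least 25 points. Between monocytes and sperm, 3695 of the 10073 unplaced CpGs (36.7%) were DMCs, compared with 18.8% of all CpGs tested. Monocytes were higher at 3226 (32.0%, compared with 13.3% of all CpGs) and sperm at 469 (4.66%, compared with 5.48%). Between fibroblasts and sperm, 4879 unplaced CpGs (48.4%) were DMCs, compared with 28.3% of all CpGs. Fibroblasts were higher at 2683 (26.6%, compared with 12.1%) and sperm at 2196 (21.8%, compared with 16.2%). Between monocytes and fibroblasts, 2615 (26.0%) were DMCs, compared with 17.0% of all CpGs, with monocytes higher at 2391 (23.7%, compared with 13.7%) and fibroblasts at 224 (2.22%, compared with 3.30%). This test holds the counting error and not the variation between animals. The edgeR quasi-likelihood test, whose error includes the spread between animals, called 2624 unplaced CpGs (26.0%, compared with 12.5% of all CpGs) for monocytes against sperm. It called 2705 (26.9%, compared with 15.2%) for fibroblasts against sperm and 638 (6.33%, compared with 4.15%) for monocytes against fibroblasts. The logistic regression between the 2 replicates of a cell type called 60 unplaced CpGs in sperm (0.596%, compared with 0.309% of all CpGs), 48 in monocytes (0.477%, compared with 0.173%) and 94 in fibroblasts (0.933%, compared with 0.693%).

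In total, 2563 unplaced CpGs (25.4%, compared with 10.4% of all CpGs) on 220 sequences were lower in sperm than in each somatic cell type. For 2160 of these (21.4%, compared with 8.98%) monocytes and fibroblasts were not called apart. The opposite pattern, sperm higher than both, was found at 309 CpGs (3.07%, compared with 3.56%) on 62 sequences. Fibroblasts were lower than both other cell types at 1529 CpGs (15.2%, compared with 9.83%) on 118 sequences. No comparison called 4280 CpGs (42.5%, compared with 66.1%). The classes of coverage differed in their calls, which were not counted by class for autosomal CpGs. On sequences at 1.5 times the autosomal coverage or more, monocytes were higher than sperm at 1270 of 1495 CpGs (84.9%) and lower at 9, and fibroblasts were higher than sperm at 1043 (69.8%) and lower at 29. On sequences below 1.5, monocytes were higher than sperm at 1956 of 8578 CpGs (22.8%) and lower at 460 (5.36%), while fibroblasts were higher at 1640 (19.1%) and lower at 2167 (25.3%). CpGs of the same MspI fragment share reads, and a larger number of reads makes a call easier.

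**Figure D3:**
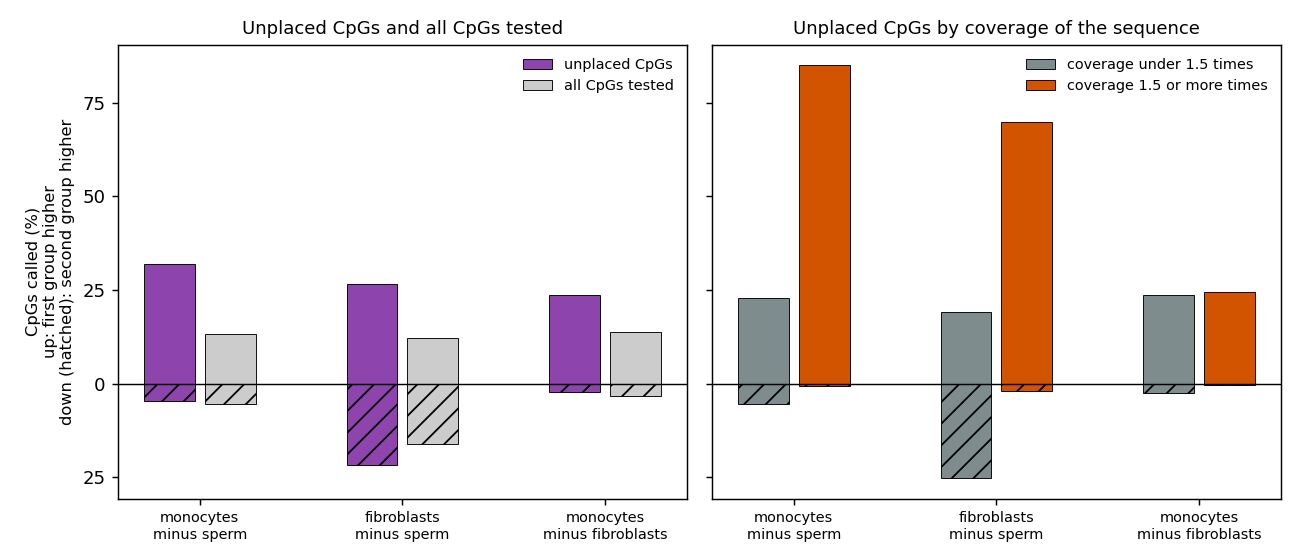
Percentage of CpGs called differentially methylated in each comparison, with the first cell type higher plotted upwards and the second higher plotted downwards (hatched). Left, the 10073 unplaced CpGs (purple) and all 1580644 CpGs tested (light grey). Right, unplaced CpGs on sequences below 1.5 times the autosomal coverage (dark grey) and at 1.5 or more (orange), where monocytes exceeded sperm at 84.9% of the CpGs.

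Whole sequences were then tested with limma, in which the spread between animals is part of the error. Reads were summed over the CpGs of each sequence, and the log2 ratio of methylated to unmethylated reads was compared over 29528 regions, namely the 170 unplaced sequences and the windows of 20000 bp on chromosomes, with calls at an adjusted p below 0.05 and a difference of at least 25 points. Between monocytes and sperm, 94 of 170 sequences were called, compared with 19.4% of all regions. Monocytes were higher in 88 (compared with 15.2% of regions) and sperm in 6 (compared with 4.20%). Between fibroblasts and sperm, 99 sequences were called (compared with 27.7%), with fibroblasts higher in 75 (compared with 11.6%) and sperm in 24 (compared with 16.1%). Between monocytes and fibroblasts, 36 were called (compared with 13.0%), all 36 with monocytes higher (compared with 11.8%), and none of the 170 with fibroblasts higher (compared with 1.19%). The median differences over the sequences were 29.9, 18.3 and 15.4 points in these comparisons, whereas those over all regions were -0.20, -1.95 and 5.17 points.

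Sperm was lower than both somatic cell types in 74 sequences (compared with 10.8% of all regions) and higher than both in 5 (compared with 2.62%). In 18 sequences sperm was called above fibroblasts but not apart from monocytes (compared with 13.4%), and 52 sequences were called in no comparison (compared with 65.5%). Of the 53 sequences at 1.5 times the autosomal coverage or more, 47 had sperm below both somatic cell types. Of the 117 sequences below 1.5, 27 did. Calls were not counted by class of coverage for autosomal windows. Over the 1071 autosomal windows at 1.5 or more, sperm minus somatic methylation had a median of -29.2 points and quartiles of -51.1 and -0.07.

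Among the 101 sequences with 20 CpGs or more, GJ060126.1 displayed the largest deficit in sperm. Its 58 CpGs between bases 6897 and 7531 averaged 1.87 and 1.12% in sperm, against 97.6 and 96.5% in monocytes and 95.9 and 97.4% in fibroblasts. All 58 CpGs were DMCs in both comparisons with sperm, and the log2 ratio of methylated to unmethylated reads exceeded that of sperm by 10.89 ± 0.47 in monocytes (estimate ± SE, limma adjusted p = 3.82e-05). Its coverage was 1.06 times the autosomal median, so it did not belong to the sequences of high coverage. GJ060127.1 (57 CpGs) averaged 35.8 and 31.4% in sperm and 90.8 to 96.8% in the 4 somatic libraries. The difference was carried by the run of 36 CpGs between bases 407 and 1933, at 2.17 and 2.56% in sperm, while the 21 CpGs between bases 3088 and 4221 were at 93.5 and 80.7%. GJ058431.1 (58 CpGs) combined 16 CpGs at bases 74 to 297 that were below 6% in all 6 libraries with 39 CpGs at bases 5332 to 6683 that were at 4.03 and 0.48% in sperm and 85.6 to 95.7% in somatic cells. The other sequences with the largest deficits were GJ058375.1, at 14.3 and 17.0% in sperm with 73.5 to 87.6% in somatic cells, and GJ060071.1, at 17.9 and 16.7% in sperm with 68.7 to 83.9% in somatic cells. Coverage of GJ060071.1 was 6.65 times the autosomal median.

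The sequences with the largest excess in sperm were mainly low in fibroblasts. GJ060157.1 (35 CpGs) averaged 98.7 and 96.6% in sperm, against 63.6 and 63.7% in monocytes and 18.4 and 19.98% in fibroblasts, and was called in all 3 comparisons (limma adjusted p = 6.05e-04, 7.57e-05 and 3.65e-03 for monocytes against sperm, fibroblasts against sperm and monocytes against fibroblasts). It held 2 runs that differed in monocytes. CpGs at bases 1939 to 2152 were at 91.2 and 90.5% in monocytes and those at bases 9268 to 9722 at 12.9 and 14.7%, whereas sperm was above 95% and fibroblasts below 8% in both runs. GJ060151.1 (22 CpGs) and GJ060156.1 (32 CpGs) were at 95.97 to 97.7% in sperm, 86.6 to 91.4% in monocytes and 9.94 to 16.3% in fibroblasts. Both were called for fibroblasts against each of the other cell types and not for monocytes against sperm. GJ059771.1 followed the same order, with 34.2 and 39.0% in fibroblasts and 79.5 and 79.3% in monocytes.

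GJ060145.1 (23 CpGs) showed the largest difference between the somatic cell types, with 93.7 and 90.6% in monocytes and 13.1 and 12.6% in fibroblasts (difference 79.3 points, limma adjusted p = 1.41e-03). Its sperm libraries were at 92.3 and 77.4%. In the other direction, GJ060118.1 (72 CpGs) had 73.0 and 74.6% in monocytes and 89.1 and 89.4% in fibroblasts. GJ059718.1 (41 CpGs) had 49.5 and 52.5% in monocytes, 63.1 and 62.9% in fibroblasts and 94.2 and 94.7% in sperm. GJ058531.1 (28 CpGs) had 73.1 and 65.5% in monocytes and 74.9 and 83.5% in fibroblasts. None of these 3 was called between monocytes and fibroblasts. Their differences of 15.4, 12.0 and 9.93 points were below the limit of 25, and the limma adjusted p of GJ059718.1 and GJ058531.1 was also above its limit, at 0.0658 and 0.122.

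The 10 sequences with the most CpGs all had a coverage of 0.79 to 1.07 times the autosomal median, and their sperm averages ran from 8.47% to 81.0%. GJ058435.1 averaged 77.7 and 79.5% in sperm, against 87.1 and 87.4% in monocytes and 80.6 and 79.9% in fibroblasts. None of its comparisons reached a difference of 25 points. For monocytes against sperm, fibroblasts against sperm and monocytes against fibroblasts, 167, 231 and 136 of its 822 CpGs were DMCs. These counts are near the shares among all CpGs tested, which were 18.8, 28.3 and 17.0%. GJ058434.1 (509 CpGs) was at 81.0 and 79.5% in sperm, against 82.5 and 81.9% in monocytes and 66.0 and 63.5% in fibroblasts. GJ058430.1 (368 CpGs) and GJ059486.1 (283 CpGs) were at 65.8 to 79.1% in sperm, 71.9 to 80.1% in monocytes and 57.9 to 64.7% in fibroblasts. In these 2 sequences the cell types were not called apart.

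Another 3 of the 10 sequences were called between monocytes and fibroblasts. GJ058444.1 (307 CpGs) was at 73.3% in both monocyte libraries and 48.8 and 45.6% in fibroblasts. GJ058440.1 (240 CpGs) was at 88.1 and 86.4% against 61.2 and 60.8%. GJ058443.1 (220 CpGs) was at 93.3 and 92.6% against 68.3 and 66.5%, and its sperm libraries, at 58.4 and 58.8%, were also called below monocytes. GJ060119.1 (190 CpGs) was at 11.3 and 9.07% in sperm and 42.1 to 42.8% in all 4 somatic libraries, and sperm was called below both somatic cell types. Its 110 CpGs at bases 9356 to 11349 were below 7% in all libraries, so that the difference lay in the 63 CpGs at bases 1552 to 6681, with 9.51 and 7.43% in sperm and 90.3 to 94.2% in somatic cells. GJ060129.1 (189 CpGs) and GJ058425.1 (436 CpGs) were also low in somatic cells, with 19.1 to 22.4% and 37.0 to 47.2%, respectively. In GJ060129.1, 82 CpGs at bases 863 to 2279 were below 1% in all libraries, whereas 14 CpGs at bases 5107 to 5543 were at 3.097 and 3.54% in sperm and 82.6 to 90.4% in somatic cells. In GJ058425.1, 110 CpGs at bases 32194 to 33852 and 103 CpGs at bases 56241 to 58578 were below 3% in all libraries.

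To describe such stretches, covered CpGs less than 1000 bp apart were joined into runs and runs of 10 CpGs or more were kept. There were 308 such runs on 151 sequences, with 7884 CpGs. Both sperm libraries were below 20% and all 4 somatic libraries above 50% in 39 runs, while the reverse (sperm above 80%, somatic below 50%) was found in 1 run. All 6 libraries were below 20% in 19 runs and above 80% in 37 runs. Fibroblasts were below 50% with all sperm and monocyte libraries above 80% in 12 runs. The 39 runs with low sperm values differed in level with coverage. On sequences below 1.5 times the autosomal coverage, 22 runs had medians of 93.8% in monocytes, 84.0% in fibroblasts and 4.47% in sperm. Their libraries ranged from 75.5 to 99.2%, 53.3 to 97.4% and 0 to 17.2%, respectively. On sequences at 1.5 or more, 17 runs had medians of 79.4% in monocytes, 61.8% in fibroblasts and 16.7% in sperm. The ranges of these were 68.7 to 84.5%, 53.8 to 69.4% and 7.73 to 19.8%. The limits of 20 and 50% that chose the runs bound all these ranges. No run of the latter sequences was below 20% or above 80% in all 6 libraries, compared with 19 and 37 of the 257 runs on the former.

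On GJ058435.1, 22 runs covered 757 CpGs. Some runs departed from the rest of the sequence. The 41 CpGs at bases 5767 to 6771 were at 1.23 and 6.60% in sperm and 91.5 to 94.1% in somatic cells, and the 44 CpGs at bases 69934 to 71201 were at 0.85 and 0.84% in sperm, against 96.0 and 95.3% in monocytes and 85.5 and 81.7% in fibroblasts. The 21 CpGs at bases 13301 to 14467 were low only in monocytes, with 28.1 and 31.8%, whereas sperm was at 98.1 and 97.4% and fibroblasts at 87.1 and 87.7%. The 18 CpGs at bases 55774 to 56152 were low only in fibroblasts, with 40.8 and 28.4%. One short run of 11 CpGs at bases 44971 to 45085 differed between the bulls, with 0.61% in the sperm of replicate 1 and 56.2% in that of replicate 2, while the somatic libraries were at 91.5 to 99.2%.

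**Figure D4:**
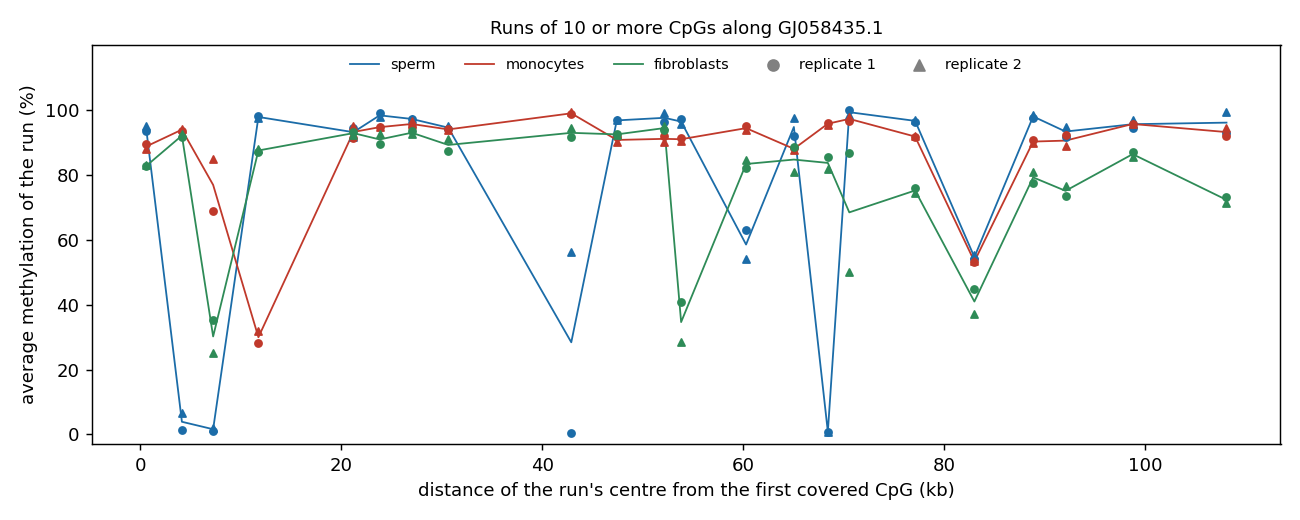
Average methylation (%) of the 22 runs of 10 CpGs or more along GJ058435.1, plotted at the distance of the centre of each run from the first covered CpG (kb), with circles and triangles for replicates 1 and 2 and lines through their means. Sperm and monocytes are above 80% in most runs, and individual runs drop in 1 cell type only, as at bases 69934 to 71201 in sperm (0.85 and 0.84%).

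Most sequences differed little between animals of the same cell type. The gap between replicates exceeded 10 points in 10 of the 170 sequences in sperm, 2 in monocytes and 13 in fibroblasts. Among sequences with 20 CpGs or more, the largest gap was in GJ058428.1 (44 CpGs), with 40.8 and 60.5% in the 2 bulls compared with 83.1 and 86.1% in monocytes. GJ059463.1 (36 CpGs) was at 46.0 and 30.8% in sperm, and GJ060145.1 at 92.3 and 77.4%. With 1 animal per value, such gaps cannot be told apart from counting error and library effects.

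Coverage itself varied between cell types for some sequences. The ratio of sperm to somatic coverage, each relative to the autosomal median of the library, was 0.98 in the median unplaced sequence but ranged from 0.12 to 5.59. It was under 0.5 for 11 of the 170 sequences (6.47%), compared with 0.17% of autosomal windows and 19.5% of X windows. It was over 2 for 8 (4.71%), compared with 0.21% of autosomal windows and 0.27% of X windows. Between 0.5 and 0.75, where 50.8% of the X windows lay, there were 20 unplaced sequences (11.8%) and 5.06% of autosomal windows. Sperm carries X or Y and the somatic cells of cows carry a pair of X, so that an X-linked position and a difference between cell types cannot be told apart here.

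GJ059379.1 had the lowest ratio, with a median coverage of 14 and 19 reads in sperm, against 210.5 and 144 in monocytes and 62 and 230 in fibroblasts. Its 20 CpGs were methylated at 45.9 and 42.2% in sperm, against 90.8 and 91.7% in monocytes and 73.2 and 78.4% in fibroblasts. GJ059840.1 and GJ059927.1 came next, with ratios of 0.28 and 0.38 and sperm averages of 47.2 to 50.3%. GJ059792.1 had the highest ratio, with 102 and 227 reads in sperm, against 32 and 15 in monocytes and 52 and 38.5 in fibroblasts. Its 22 CpGs were at 24.4 and 26.8% in sperm, against 82.2 and 80.4% in monocytes and 58.3 and 53.1% in fibroblasts. GJ059982.1 and GJ059787.1 followed, with ratios of 2.48 and 2.31 and sperm averages of 43.4 and 44.9% and of 28.4 and 25.9%. In GJ059982.1 the sperm libraries themselves were far apart in coverage, with 125 and 17 reads. Its fibroblast libraries had 18 and 58 reads. Replicates in fibroblasts were also far apart in GJ059840.1 (44.5 and 201.5 reads) and GJ059927.1 (14 and 71), but not in GJ059787.1 (23 and 19). All 6 of these sequences were called lower in sperm than in each somatic cell type. All but GJ059787.1, at 1.27, were at 1.5 times the autosomal coverage or more. In that class 47 of 53 sequences had this call, whatever their ratio. Whether the ratio of sperm to somatic coverage bears on the call was not tested. Over the 11 sequences with a ratio under 0.5 the median methylation was 89.2% in monocytes, 77.7% in fibroblasts and 45.9% in sperm. Over the 20 sequences from 0.5 to 0.75 it was 82.6, 64.3 and 23.0%, and over the 121 from 0.75 to 1.5 it was 83.4, 62.7 and 61.1%. Over the 18 sequences with a ratio of 1.5 or more it was 83.1, 66.0 and 23.9%. Of these sets, 9, 10, 27 and 7 sequences were at 1.5 times the autosomal coverage or more.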

How the data were processed

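RRBS libraries of 2 sperm, 2 monocyte and 2 fibroblast samples were assigned to groups from their cell type label. The submitters' processing notes name Trim Galore 0.3.7, Bismark 0.14.3, Bowtie, FastQC, methylKit and the UMD3.1 genome. The authors deposited, for each CpG, coverage as counts of uniquely mapped reads from fragments of 40 to 290 bp, sequenced as 75 bp paired ends, and methylation as a percent of these reads. Methylated reads were obtained by rounding coverage times percent to a whole number, and no CpG was off by more than 0.1 point.

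CpGs covered by 5 to 500 reads in all 6 libraries were kept. An upper limit removes CpGs of the most amplified or repeated sequences, and unique mapping removes repeats with near-identical copies in the assembly. Library averages were compared by exact permutation tests over libraries, CpGs by logistic regression (likelihood-ratio test) on reads summed over replicates (numpy 2.4.6, scipy 1.17.1, pandas 2.3.3), and regions of at least 10 CpGs by limma 3.58.1 in R 4.3.3 with robust empirical Bayes, after adding 1 read to each class. edgeR 4.0.16, Fisher's exact test, other coverage and size limits, leaving out each library and a replicate block were alternatives. Tests were checked on simulated data. PCR duplicates cannot be recognized in RRBS, so that intervals and calls cover counting error of reads that may not be independent molecules.

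The named sequences were the 10 with the most CpGs and, among those with 20 CpGs or more, the 5 lowest and 5 highest for sperm minus somatic methylation, the 3 largest differences in each direction between monocytes and fibroblasts, the 3 largest gaps between replicates and the 3 highest and lowest sperm to somatic coverage ratios, plus those said to be chosen after their values were seen. Runs and the classes of relative coverage were chosen after seeing the data, as were the runs that are described. The sequences to be described and the tests were chosen with earlier results of these data known. Replicate numbers shared by the cell types name different animals, and deviations of libraries with the same number from their group means correlated at 0.0042, 0.0016 and -0.0032 over all CpGs.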

Additional observations from a re-analysis of the deposited data

Results flagged for a closer look

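Unplaced CpGs covered by more than 500 reads were left out of all comparisons, and were counted here because they lie outside the main measurement. There were 283 and 182 of them in monocytes, 338 and 227 in sperm, and 188 and 458 in fibroblasts, and they took 29.7 to 44.9% of the reads on unplaced sequences. Their average methylation was 21.5 and 16.6% in sperm, against 85.3 and 82.6% in monocytes and 64.8 and 70.9% in fibroblasts. The groups did not overlap, and the sets of CpGs differ between libraries.

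Some unplaced CpGs were covered only in 1 kind of cell. 684 CpGs on 121 sequences had 5 reads or more in both sperm libraries and no read in any somatic library, which is 1.42% of the unplaced CpGs covered in at least 1 library, against 0.24% on autosomes and 0.71% on the X chromosome. Conversely, 753 CpGs on 108 sequences had 5 reads or more in all 4 somatic libraries and none in sperm (1.56%, against 0.19% on autosomes and 0.51% on X). The sequence with the most CpGs of the first kind was GJ059347.1, where 54 of 343 listed CpGs had a median of 244 and 276.5 reads in sperm and a methylation of 22.9 and 17.1%. That with the most of the second kind was GJ059909.1, with 53 CpGs at 88.3 and 88.6% in monocytes and 74.8 and 78.4% in fibroblasts. GJ059379.1, whose ratio of sperm to somatic coverage was the lowest, held 38 more. These 3 sequences were named after their values were seen. Cell type, sex and animal cannot be told apart for these CpGs.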

How the results depend on the processing

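For differences between cell types, spreads and counts, 313 values were recomputed. Of these, 283 kept their direction (differences), stayed within 1.5 times the count (counts) or within the SD between replicates (spreads). Differences between library averages were in effect judged by direction alone, since no permutation test could pass 0.05. Leaving out a library that a comparison did not use could not change such a difference, and these cases are among the 283. The levels of each cell type are not part of the 313. They comprise average methylation, its excess over autosomes, the shares of CpGs by methylation and relative coverage. Of their recomputed values, 69 moved by more than the SD between the 2 replicates and only 6 stayed within it. Averages over all unplaced CpGs were highest in monocytes under every alternative. Fibroblasts minus sperm, at 2.96 points, became -2.77 on sequences below 1.5 times the autosomal coverage, where the groups did not overlap, and was 3.98 to 16.6 with other coverage limits, weightings and choices of sequences. Without 1 library at a time, the counts ranged from 3347 to 3507 CpGs for monocytes against sperm, 4101 to 4629 for fibroblasts against sperm and 1814 to 2314 for monocytes against fibroblasts, and from 91 to 94, 96 to 99 and 28 to 36 sequences.

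Of the differences that were within the spread between libraries, several changed sign. Intermediate CpGs in monocytes minus sperm were at -0.33 points and became 7.66 with limits at 10 and 90%, 1.29 at a minimum coverage of 10 and 2.40 on sequences below 1.5 times the autosomal coverage, and ranged from -1.03 to 0.37 without 1 library. Hypermethylated CpGs in sperm minus somatic cells were at -3.84 points and became 7.37 with limits at 10 and 90% and 3.13 on sequences below 1.5, and ranged from -9.08 to 1.496 without 1 library. Relative coverage in sperm minus somatic cells was at 0.0046 and became -0.032 over the CpGs of each library without an upper limit, and ranged from -0.014 to 0.023 without 1 library.

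A minimum coverage of 10, which left 6238 unplaced CpGs, gave 2406, 3105 and 1742 DMCs in the order above. A difference of 50 points gave 2749 for fibroblasts against sperm and 1072 for monocytes against fibroblasts. The edgeR quasi-likelihood test, which holds the spread between animals, gave 2705 (26.9%, compared with 15.2% of all CpGs) and 638 (6.33%, compared with 4.15%) in these comparisons. With 5 CpGs or more per sequence, 157, 159 and 57 of 249 sequences were called, and with 20 or more, 48, 56 and 23 of 101. The SD between sequences with 5 CpGs or more reached 32.2 in sperm, against 17.9 in monocytes and 20.4 in fibroblasts, and with 20 or more it was 20.35 in monocytes. With the replicate block, which has no basis in the animals, 3573, 4653 and 2385 CpGs and 94, 99 and 36 sequences were called. With 2 libraries per cell type, permutation tests could not pass 0.05, and variation between animals was poorly known.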
